A study of Mus musculus with 4 samples.

Results

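The baseline transcriptome of N2a cells was taken from the siControl Veh library alone, 1 of the 4 polyA RNA-seq libraries of the series, as the columns that carry its name in the gene table and in the 3 splicing tables. N2a (Neuro-2a) is a mouse neuroblastoma cell line, grown here as a monolayer in DMEM with 10% FBS. The siControl Veh cells carried non-targeting control siRNAs, delivered with a lipid reagent, for 48 h, and were given the ethanol vehicle for a further 4 h after that. The cells are therefore transfected and vehicle-treated cells, not untouched ones. The other libraries were siControl Dex, with the same control siRNAs and 100 nM of the glucocorticoid dexamethasone (Dex) for 4 h, and the same pair of treatments after siRNAs against Arglu1 (siArglu1 Veh, siArglu1 Dex). Each library was made from RNA pooled over 3 cultures, so a condition has 1 measurement, no replicate error could be estimated, and no test between groups was made.

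Neuroblastoma is a tumour of the sympathoadrenal lineage, whose cells leave the neural crest, take up a program of transcription factors such as Hand2 and Gata factors, and become sympathetic neurons or chromaffin cells that make catecholamines. Splicing in neurons differs from that of most other tissues: very short exons, the microexons, are included in neurons by factors such as Srrm4, and Ptbp1 represses many neuronal exons in other cells. A transcriptome of such a line can thus be read for its lineage, its neuronal maturity, the signals its receptors can take up and the state of its neuronal exons.

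The siControl Veh library held 66074574 reads on 22667 genes, and the other 3 held 66590878 to 86541444. Levels are given as cRPKM, reads scaled to uniquely mappable length and to the library's total, and can be compared between genes since they are per length. A cRPKM was listed for 21553 genes. Of these, 10793 (50.1%) reached a cRPKM of at least 1, the level counted as expressed here, and 5671 (26.3%) had 0 reads. The median over all genes with a value was 1.01. Among expressed genes the median was 14.6, with quartiles of 5.78 and 34.5, and the median gene rested on 2678 reads. A cRPKM of at least 100 was reached by 834 genes (3.87%) and one of at least 1000 by 70 genes. At this depth 3 reads on a gene with 1000 mappable nt correspond to a cRPKM of 0.0454, so a gene with 0 reads may still be transcribed below that level. Intervals below are exact 95% intervals and cover counting error only.

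The gene targeted in the siArglu1 arm was checked first. Arglu1, a coactivator of nuclear receptors and a splicing regulator, had a cRPKM of 92.6 in the baseline and 99.9 with Dex. With siRNAs against it the level was 23.8 under vehicle and 22.6 under Dex. The 2 siControl libraries lay above the 2 siArglu1 libraries, so the level matched the label. In siControl Veh it rested on 10165 reads (9968 to 10364.6) and ranked 921 among the genes with a cRPKM.

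The same control siRNAs in the siControl Dex library gave nearly the same baseline. The expressed call agreed for 99.2% of the 21553 genes: 10688 were expressed in both libraries, 105 in siControl Veh only and 70 in siControl Dex only. Among genes with 1000 to 9999 reads the median absolute log2 ratio of the read shares was 0.05 (6748 genes), and it was 0.28 among genes with 10 to 99 reads (2058 genes). That gap holds the Dex treatment and the difference between libraries together, and is not a replicate error.

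The most abundant transcripts were those of the mitochondrial genome and of protein synthesis. The 25 genes with the highest cRPKM took 25.1% of the summed cRPKM and 8.04% of the reads (8.04 to 8.05%). Of these genes 10 were mitochondrial, 8 encoded proteins of the cytosolic ribosome and 7 were others. The mitochondrial messengers encode core subunits of the respiratory chain and of ATP synthase: mt-Co2 stood at 11740.5, mt-Co3 at 8548, mt-Co1 at 7326 and mt-Cytb at 7195. All 12 mitochondrial protein genes with a value lay between 2051 and 14501.3, and together they took 4.92% of the reads. Eef1a1, which carries aminoacyl-tRNA to the ribosome, was the highest nuclear gene with a long mappable sequence, at 7900 cRPKM and 896273 reads, the most reads of any gene. Ptma, a small acidic nuclear protein, reached 3053, and Hsp90ab1, a cytosolic chaperone that also holds steroid receptors in their binding state, reached 2625. The ribosomal protein genes led by Rpl32 (4415), Rps26 (3488), Rplp1 (3426), Rpl8 (2900), Rpl19 (2572), Rpl4 (2402), Rpl26 (2311) and Rps4x (2192) belonged to a class of which all 75 members with a value were expressed, 56 of them at 100 or more, with a median of 634.

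Several of these ranks rested on very little sequence. The highest cRPKM of all, 29663.5, belonged to ENSMUSG00000090847, which the gene table lists without a symbol and for which reads and cRPKM imply 1 mappable nt under 1960 reads. The next, mt-Atp8 at 14501.3 and mt-Atp6 at 12947.2, had 24 and 83 mappable nt, and Rps18-ps3, named as a pseudogene, had 4. In all, 10 of the 25 genes had fewer than 200 mappable nt, Gm10076 (6414, 177 mappable nt) and ENSMUSG00000090378 (3413, 43 mappable nt) among them. The reads of mt-Nd6, encoded on the other strand of the mitochondrial genome (2436), cannot be told apart from those of its opposite strand, since the library kit keeps no strand. Among genes with at least 200 mappable nt, the 25 highest took 14.8% of the summed cRPKM of all genes. Of these, 15 were shared with the first ranking, and Rps15 (2168), Actg1 (2165), Rpl38 (2077), Atp5b (1967) and Mif (1855) entered. All 25 genes of either ranking were also the 25 highest in siControl Dex.

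**Figure D1:**
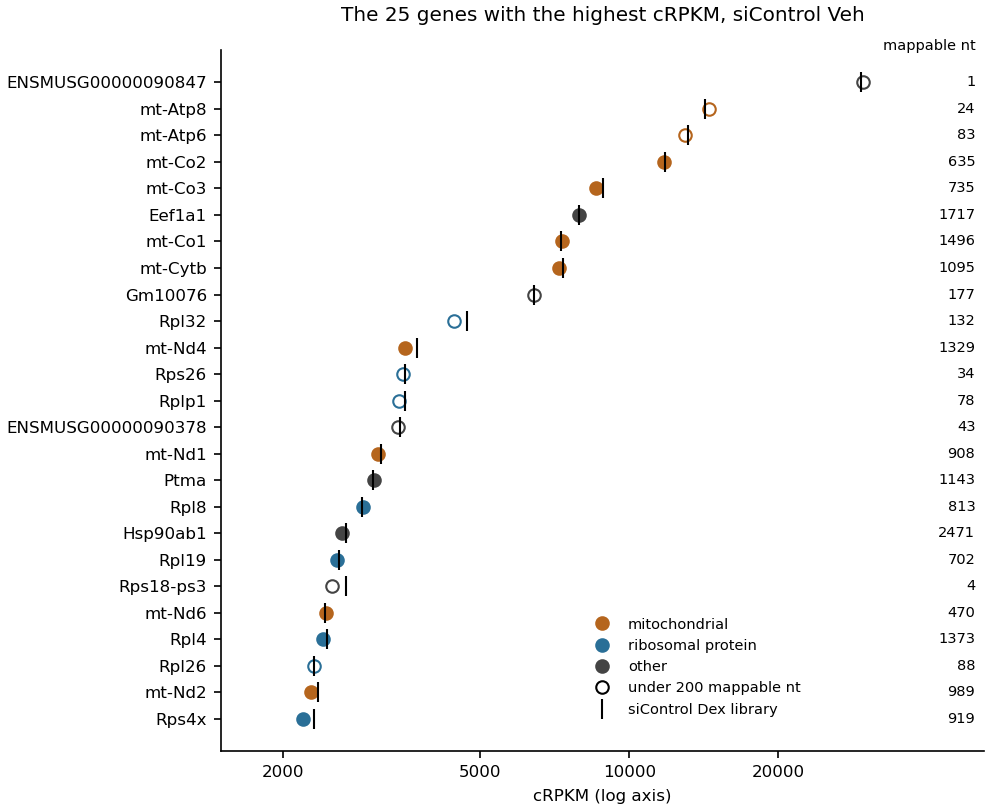
The 25 genes with the highest cRPKM in siControl Veh (circles, log axis), coloured by class, with the number of mappable nt at the right and the siControl Dex library as a bar. Open circles mark the 10 genes with fewer than 200 mappable nt, the highest of which has 1, and the 2 libraries lie close together for every gene.

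Translation and glycolysis were represented by nearly every gene of their lists, where 50.1% of all genes were expressed. All 15 genes of the translation list with a value were expressed, with a median of 782: after Eef1a1 came Tpt1 (1606), the ribosomal scaffold Gnb2l1 (1594), the translocase Eef2 (1525), Npm1 (1122), Btf3 (917), Eif5a (898) and Eef1g (782). Of 19 glycolysis genes 18 were expressed, with Pkm at 1300, Ldha at 1214, Aldoa at 1056, Tpi1 at 551, Pgk1 at 488, Eno1 at 389, Gpi1 at 319 and Pfkl at 128. Ldhb, which encodes the other lactate dehydrogenase subunit, had 0 reads. Gapdh stood at 5.08 from 56 reads (42.3 to 72.7). Only 167 of its positions were mappable, and the level of a gene with near-identical copies, as of several ribosomal protein genes, is uncertain in a count of uniquely placed reads.

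The transcription factors of the neural crest and sympathoadrenal lineage were present in part, in a share like that of all genes. Of 32 neural crest and sympathoadrenal factors 16 were expressed (50%, beside 50.1% of all genes), 10 of them at 10 or more, and the median of the list was 2.06 beside 1.01 over all genes. Hand2 led with 219 and was the only member above 100. Among the next were Lmo1 (79.96), Gata2 (79.4), Sox4 (55.9), Phox2a (44.9), Insm1 (22.5) and Tbx2 (15.7). Phox2a, a homeodomain factor of noradrenergic neurons, and Hand2, a bHLH factor of sympathetic neurons, were thus both high. Sox11 stood at 14.3, Isl1 at 9.52, Mycn at 6.66 and Gata3 at 3.59, below its relative Gata2. These genes were expressed in all 4 libraries: Hand2 ranged from 219 to 328, Gata2 from 30.6 to 79.4 and Phox2a from 44.9 to 98.8, with the baseline at or near the low end for Hand2 and Phox2a and at the high end for Gata2.

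Factors of the early and migrating crest were at or near 0. Foxd3, Pax7, Msx1, Twist1 and Tfap2c had 0 reads, Msx2 had 1, Sox10 had 2 and Tfap2a had 3. Sox9 (4.98) and Ets1 (4.06) were the crest factors above the threshold, while Snai2 (0.26), Pax3 (0.38) and Zic1 (0.52) were below it. Of other members of the list, Hand1 (0.16), Tfap2b (0.17) and Lmo3 (0.51) were also below the threshold.

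The catecholamine list was split between a strong granule compartment and weak synthesis. Of 21 genes 15 were expressed (71.4%, beside 50.1% of all genes), 5 of them at 100 or more, and the median was 16.3. These 5 were granins and their processing partners: Chga (190), Chgb (151), Scg3 (138), Scg2 (128) and Scg5 (109). The genes that make and recycle tetrahydrobiopterin, the cofactor of tyrosine hydroxylase, followed with Qdpr at 78.5, Gch1 at 54.1 and Spr at 37.4. The vesicular transporter Slc18a2 stood at 19.4. The enzymes themselves were low: Ddc 5.71, Dbh 3.2 and Th 2.58, the last from 303 reads (269.8 to 339.1). Th was at 4.71 in siControl Dex. Under siArglu1 it was at 1.05 with vehicle and 2.54 with Dex. Pnmt, which makes adrenaline, had 1 read, and the plasma membrane transporters Slc6a2 and Slc6a3 and the oxidase Maob had 0.

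Other transmitter systems were sparse. Of 17 genes with a value 3 were expressed (17.65%, beside 50.1% of all genes). They were Tph2, the neuronal tryptophan hydroxylase (8.29), Ache (4.43) and Tph1 (1.70). Tph2 was thus above Th on the cRPKM scale. Chat had 15 reads, Slc6a4 had 5, and Gad1, Slc17a6, Slc5a7 and Bche had 0. Slc18a3 was not analysed here.

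Genes of the neuronal cytoskeleton and of neurite growth were among the highest of any list. Of 26 genes 23 were expressed (88.5%, beside 50.1% of all genes) and 15 stood at 100 or more, with a median of 126. Tuba1a reached 1809, Stmn1 1479, Uchl1 730, the peripheral intermediate filament Prph 670, Tubb3 630, Marcksl1 315, Basp1 245 and Stmn3 231, while Gap43 was at 181. The neurofilament genes went different ways. Nefh stood at 55.8 and Ina at 63.9, but Nefl and Nefm, which encode the other neurofilament subunits, had 2 reads each (0.242 to 7.23) and no more than 9 reads in any of the 4 libraries. Dcx, a microtubule protein of migrating neurons, was at 0.25 from 149 reads. Map2 (8.18) was present at a low level.

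Of 45 genes of the synapse and of vesicle release 32 were expressed (71.1%, beside 50.1% of all genes). Of these, 22 stood at 10 or more and none at 100. The fusion machinery led: Cplx1 77.1, Snap25 58.5, Vamp2 45.0, Nsf 38.5, Syt1 32.7, Syt11 31.1 and Syt4 29.5. The presynaptic vesicle protein Syp stood at 27.6 and the priming factor Unc13a at 25.8. Some genes of the list had fewer than 10 reads: Nlgn1 had 1 read, Unc13b and Sv2b 2, Pclo 5 and Rims1 7. Relatives of these stood higher, Nlgn2 at 8.84 and Rims2 at 15.7, as did the scaffold Homer1 at 7.38. Unc13a thus stood far above its relative Unc13b, which was at 0.01. Nrxn2 was at 7.12.

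Markers of other cell types were low as lists. Of 23 neural progenitor genes 5 were expressed (21.7%, beside 50.1% of all genes), with a list median of 0.02. Vim, an intermediate filament also common in cultured cells, was at 806, and the others were Nes (5.25), Pax6 (5.08), Dlx2 (2.03) and Hes5 (1.22). Sox2, Sox3, Otx2, Emx2, Fabp7, Neurog1 and Neurod2 had 0 reads. Of 24 genes of Schwann cells and other glia 3 were expressed (12.5%): Pmp22 at 71.4, Cnp at 8.29 and Mbp at 1.18. Mag, Olig1, Olig2, Slc1a3, Aif1, Itgam and P2ry12 had 0 reads, S100b had 2 and Gfap 4. Of 20 mesenchymal genes 4 were expressed (20%), led by Fn1 (36.9), with Acta2 at 3.85, Myl9 at 3.84 and Wwtr1 at 2.37. The collagens Col1a2 and Col3a1 had 1 and 0 reads, and Yap1 had 0. The list of endothelial, blood, epithelial and liver genes also holds muscle genes. Of its 21 genes with a value 2 were expressed (9.52%), the muscle gene Des (1.74) and Krt8 (1.01). Of the markers that define a sympathoadrenal tumour line, Hand2, Phox2a, Gata2, the granins and Prph were thus present, while Nefl and Nefm had 2 reads each.

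**Figure D2:**
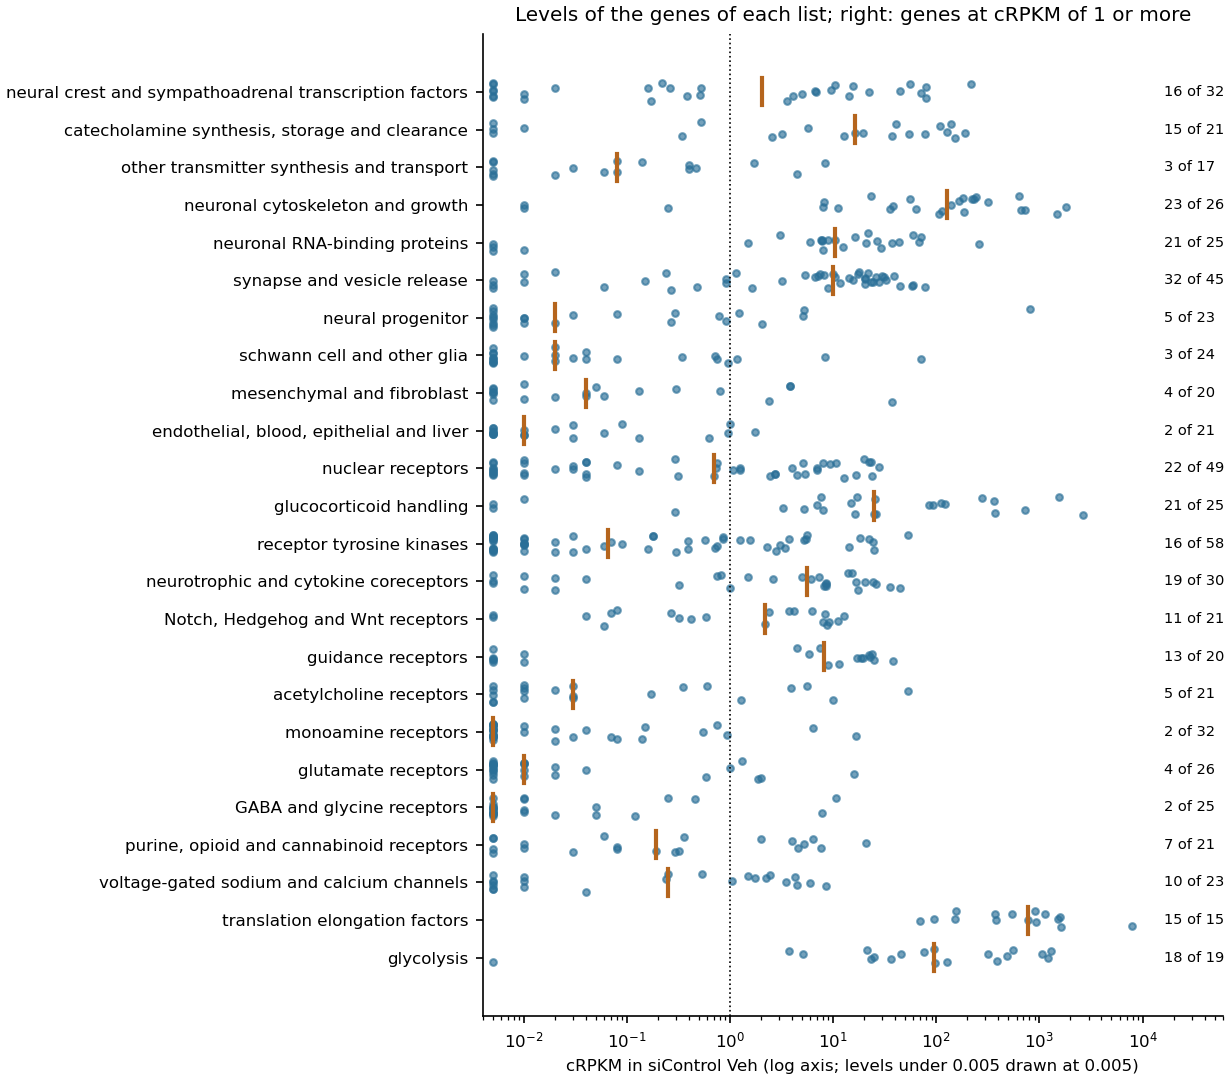
Every gene of 24 lists as a point at its cRPKM in siControl Veh (log axis, values under 0.005 drawn at 0.005), with the list median as a vertical bar, the threshold of 1 as a dotted line and the number of expressed genes at the right. The cytoskeleton, translation and glycolysis lists lie almost wholly to the right of the threshold, and the glial, progenitor, mesenchymal and monoamine receptor lists mostly to its left.

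Among regulators of neuronal splicing both the repressor and the activators were expressed. Of 25 neuronal RNA-binding proteins 21 reached the threshold (84%, beside 50.1% of all genes), with a median of 10.4. Ptbp1 was the highest at 257, and its neuronal relative Ptbp2 stood at 71.6. Celf3 (68.7), the general RNA stabiliser Elavl1 (59.8), Rbfox2 (44.0), Msi1 (37.6), Elavl2 (29.2) and Elavl4 (26.4) followed. Srrm4, the activator of neuronal microexons, was at 7.86 from 3855 reads and Srrm3 at 10.4. Rbfox3, the NeuN antigen of mature neurons, had 1 read, Mbnl3 had 1, and Khdrbs2 and Khdrbs3 had 0. Over the 4 libraries Ptbp1 ranged from 216 to 257 and Srrm4 from 6.32 to 8.19.

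Nuclear receptors, transcription factors that bind hormones and lipids, were expressed at modest levels. Of 49 genes 22 reached the threshold (44.9%, beside 50.1% of all genes) and 8 stood at 10 or more, with none at 100. The highest were the thyroid hormone receptor Thra (28.04), Nr2f6 (23.97), the retinoid partner Rxrb (23.4), the oxysterol receptor Nr1h2 (22.3), the clock repressor Nr1d2 (19.9), Esrra (16.7), Rara (12.8) and Nr1d1 (10.8). The glucocorticoid receptor Nr3c1 stood at 6.90 from 2904 reads (2799 to 3012), and at 6.37 in siControl Dex. The siArglu1 libraries were at 5.42 (Veh) and 5.96 (Dex). Of other steroid receptors, the mineralocorticoid receptor Nr3c2 had 1 read, Pgr had 1, and Esr1 stood at 0.73. Members of some families were uneven, with Thra at 28.04 and Thrb at 6 reads, and Rxrb at 23.4 beside Rxra at 1.25 and Rxrg at 0 reads.

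The genes that handle glucocorticoids were for the most part present. Of 25 genes 21 were expressed (84%, beside 50.1% of all genes), with a median of 24.7. The chaperones of the receptor were the highest: Hsp90ab1 2625, Hspa8 1566, Hsp90aa1 733, Fkbp4 371, Ptges3 367, Stip1 280, Hspa4 122 and Dnaja1 112. Coregulators lay on both sides of Nr3c1: the corepressor Ncor1 (24.7) and the coactivators Ep300 (17.01), Ncoa3 (16.1) and Med1 (14.97) were among those above it, and Ncoa1 (5.20) and Nrip1 (3.23) among those below. Hsd11b1, which regenerates active glucocorticoid inside cells, had 0 reads, and Hsd11b2, which inactivates it, was at 0.29 from 34 reads (23.6 to 47.5).

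Over the 9 lists of surface receptors, 79 of 254 genes were expressed (31.1%, beside 50.1% of all genes), 32 of them at 10 or more. Of the 254, 123 had fewer than 10 reads, while 13002 of all 21553 genes had at least 10. The highest was Chrna3 at 53.2. The expressed share was highest for guidance receptors (65%), neurotrophic and cytokine coreceptors (63.3%) and Notch, Hedgehog and Wnt receptors (52.4%). It was lowest for monoamine receptors (6.25%), GABA and glycine receptors (8%) and glutamate receptors (15.4%).

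Of 58 receptor tyrosine kinases 16 were expressed (27.6%, beside 50.1% of all genes). Ret, the signalling receptor of the GDNF family, led at 52.9 and ranged from 52.2 to 63.0 over the 4 libraries. Fgfr1 (25.1), the collagen receptors Ddr1 (24.5) and Ddr2 (18.2), the Wnt receptor Ryk (22.3), Lmtk2 (14.2) and Insr (5.62) were also among the highest. Alk, mutated in some human neuroblastomas, stood at 3.02. Of the neurotrophin receptors, Ntrk3 was at 2.78, Ntrk2 had 1 read, and the shared low-affinity receptor Ngfr was at 35.7. Erbb4, Fgfr2, Kit, Kdr, Epha4, Epha5, Ror1 and Ror2 had 0 reads, Met had 1 and Erbb2 had 3.

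The list of neurotrophic and cytokine coreceptors also holds main receptor chains, such as Tnfrsf1a, Tgfbr1 and Bmpr1a. Of its 30 genes 19 were expressed, led by Cntfr (44.7), Ngfr (35.7), Tnfrsf1a (26.0), Tgfbr1 (24.1), Bmpr1a (20.2), Sort1 (17.3), Ifngr2 (16.5) and Ifnar1 (15.3). Some partners within known receptor complexes, chosen after their values were seen, were at different levels. Cntfr, which binds CNTF, stood at 44.7, while the signalling chains of that complex were Il6st at 5.0 and Lifr at 0 reads. Tgfbr1 was at 24.1 and Tgfbr2, which binds the ligand first, at 0.04 from 20 reads (12.2 to 30.9). Ret was at 52.9, and of its ligand-binding partners Gfra1 was at 2.60, Gfra2 at 0.81, Gfra4 had 1 read and Gfra3 had 0. Ptch1, the Hedgehog receptor, was at 9.14, and Smo, which transmits its signal, had 9 reads (4.12 to 17.1). These are the values of the baseline, and in each of these pairs the lower partner stayed lower in all 4 libraries.

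Of 21 Notch, Hedgehog and Wnt receptors 11 were expressed (52.4%, a share like the 50.1% of all genes). Fzd7 (12.7), Lrp6 (11.2), Ptch1 (9.14), Fzd6 (8.67), Lgr5 (8.35), Fzd3 (7.94), Lrp5 (6.30) and Lgr4 (4.13) were the highest. Notch2 stood at 3.77 and Notch1 at 0.08 from 52 reads. Of 20 guidance receptors 13 were expressed (65%, beside 50.1% of all genes), with a median of 8.17. Unc5b, a netrin receptor, led at 37.8, followed by the plexins Plxnb2 (25), Plxna1 (24) and Plxnc1 (22.8), the netrin receptor Neo1 (22.5), the neuropilins Nrp2 (19.7) and Nrp1 (18.7), and Unc5c (17.0). Dcc, the other classical netrin receptor, had 0 reads, and the Slit receptors Robo1 and Robo2 had 1 read each and Robo3 had 4.

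Receptors of transmitters were mostly at or near 0, while over all genes 50.1% were expressed and 26.3% had 0 reads. Of 21 acetylcholine receptor genes 5 were expressed: the ganglionic nicotinic subunit Chrna3 (53.2, and 41.9 to 53.2 over the 4 libraries), Chrnb2 (10.1), the muscarinic Chrm4 (5.62), Chrna7 (3.93) and Chrna1 (1.27). Chrnb4, the usual partner of Chrna3 in autonomic ganglia, was at 0.60 from 132 reads (110.4 to 156.5). Of 32 monoamine receptors 2 were expressed, the serotonin-gated channel Htr3a (16.6) and the histamine receptor Hrh3 (6.40), and 16 had 0 reads, Adrb1, Drd2 and Htr2a among them. Of 26 glutamate receptor genes 4 were expressed, among them Grik5 (16.03), Grin1 (2.02) and Gria2 (1.87). No Grin2 subunit, which Grin1 needs for a surface channel, reached the threshold, the highest being Grin2d at 0.59. Of 25 GABA and glycine receptor genes 2 were expressed, Gabbr1 (7.81) among them, and the alpha subunits ran from 0 to 9 reads. Gabbr2, the partner of Gabbr1, had 3 reads.

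Of 21 purine, opioid and cannabinoid receptors 7 were expressed (33.3%, beside 50.1% of all genes). They were the cannabinoid receptor Cnr1 (21, and 15.02 to 21 over the 4 libraries), Adora2a (7.55), P2rx4 (6.33), Oprl1 (5.25), P2rx7 (4.61), P2rx3 (3.95) and Adora3 (1.99). Oprm1 had 0 reads. Of 23 voltage-gated sodium and calcium channel genes 10 were expressed (43.5%, beside 50.1% of all genes), none at 10. Scn3b (8.55), the N-type channel Cacna1b (5.91), Scn9a (4.51), Cacna1c (4.30), Scn8a (3.46), Cacna1g (2.45) and Scn3a (2.21) were among the highest. Cacna1d had 0 reads.

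Splicing was measured as PSI, the percentage of a gene's transcripts in which an exon is kept. For a splice site it is the percentage of choices among the sites of the same event. The tables list 91656 events: cassette exons, which are skipped or included, sorted by the submitters into simple, complex and marked ME, microexons of 3 to 15 nt, and alternative 3′ (Alt3) and 5′ (Alt5) splice sites. Each PSI carries a coverage score, and in the Alt3 and Alt5 tables LOW stood for 20 to 39 junction reads, OK for 40 to 99 and SOK for 100 or more. With a score of LOW or better in siControl Veh, 58964 events could be classed. An exon counts as skipped at a PSI under 10, intermediate from 10 to 90 and included over 90. For Alt3 and Alt5 the PSI is that of each site other than the 1 giving the shortest exon, and an event is intermediate if any of these sites is.

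Most events were used all the way or hardly at all. Of the 58964 events 7031 (11.9%) were intermediate, 36005 (61.1%) were over 90 and 15928 (27.01%) under 10. The 33828 cassette exons were close to that, with 12.4% intermediate. The classes differed in where the mass lay. Simple cassette exons were mainly included: 72.6% (72.0 to 73.1%) of 25415 were over 90, 17.2% under 10 and 10.2% (9.82 to 10.6%) intermediate, with a median PSI of 98.4. Complex cassette exons had 58.7% over 90, 22.7% under 10 and 18.6% (17.8 to 19.5%) intermediate among 8204, with a median of 95.2 and a lower quartile of 16.8. The 209 exons marked ME were the most mixed, with 44.5% (37.6 to 51.5%) intermediate and a median of 29.8. The interval of that share did not overlap those of the other types.

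Microexons were mostly skipped in these neuroblastoma cells. Of 309 microexons 62.8% (57.1 to 68.2%) had a PSI under 10, 21.0% (16.6 to 26.0%) were intermediate and 16.2% (12.3 to 20.8%) were over 90. The median PSI was 1.33, the upper quartile was 51.6, and 40.5% had a PSI of exactly 0, beside 5.16% of simple cassette exons. Alt3 events were over 90 in 59.2% and intermediate in 10.7% of 14482, and Alt5 events in 39.4% and 11.6% of 10345. The median PSI of the lengthening sites, pooled over events with 2 or more sites, was 90.7 for Alt3 and 3.67 for Alt5. In events with 2 sites it depended on the distance between them: in Alt5 events it was 99.2 at 3 nt, 8.06 at 4 nt, 88.8 at 13 to 24 nt and 0.75 at 101 to 499 nt.

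**Figure D3:**
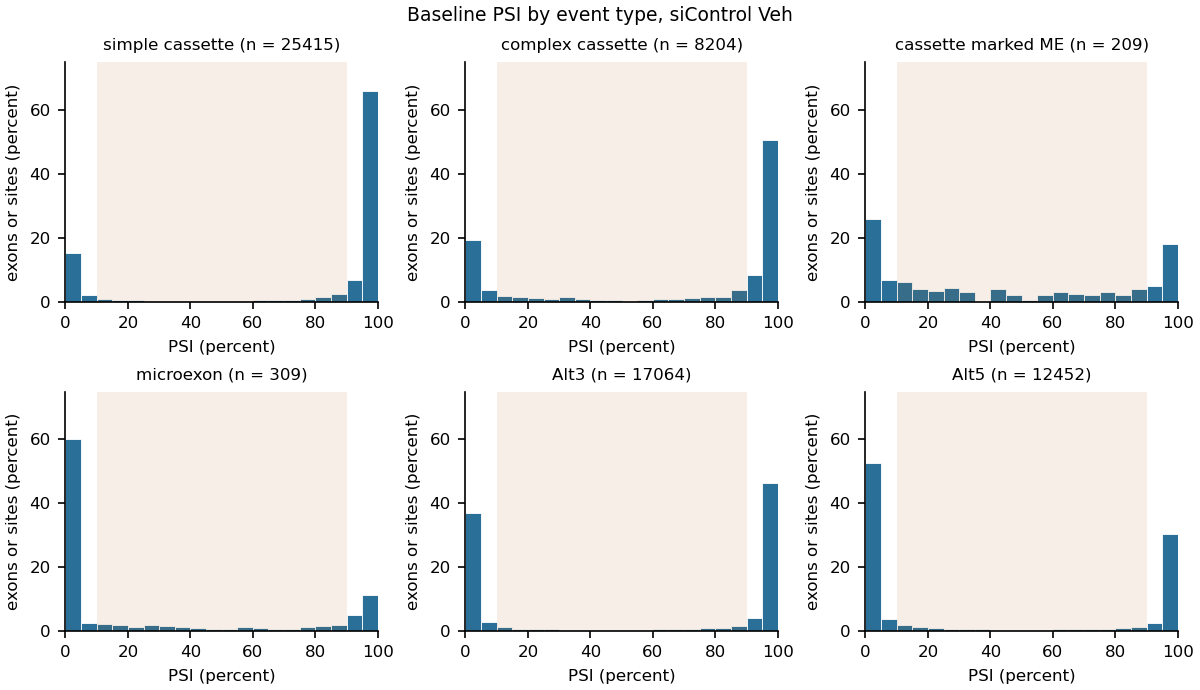
Percent of exons or sites in each bin of 5 PSI points in siControl Veh, for the 6 event types with their number, with the range from 10 to 90 shaded. Simple cassette exons pile up at 100, microexons at 0, and the exons marked ME spread most over the shaded range.

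PSI values were alike in the siControl Dex library. Of 57919 events classed in both, 55650 (96.1%) fell in the same class, and no event went from under 10 to over 90 or back. Of 6786 intermediate events of siControl Veh, 5726 (84.4%) were intermediate in siControl Dex too. The median absolute difference was 0.41 PSI points for exons and sites scored SOK in both, and 2.66 for the intermediate ones among them, with 95% of the latter within 9.30 points. For intermediate ones scored OK in both, 95% were within 15.7 points, and for those scored LOW in both within 21.9. These gaps hold the Dex treatment and the difference between libraries together, and are not a replicate error.

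Short exons were the ones most often intermediate. Among cassette exons and microexons together the intermediate share was 22.5% (18.2 to 27.4%) of 333 exons of 3 to 15 nt, 33.0% (28.1 to 38.1%) of 358 exons of 16 to 27 nt and 17.99% of 1990 exons of 28 to 50 nt. It was 13.3% of 11297 exons of 51 to 100 nt, 10.8% (10.2 to 11.4%) of 11176 exons of 101 to 150 nt and 10.9% of 7887 exons of 151 to 300 nt. Over 300 nt it was higher again, at 14.6% (12.6 to 16.8%) of 1096 exons. The share included over 90 ran the other way, from 16.2% at 3 to 15 nt through 31.6% at 16 to 27 nt to 72.7% at 101 to 150 nt.

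Exons whose length is a multiple of 3, which keep the reading frame when skipped, were intermediate more often. For simple cassette exons the share was 12.5% (11.9 to 13.2%) of 10336 against 8.59% (8.15 to 9.05%) of 15079 others. For exons of 16 to 27 nt it was 40.3% (34.0 to 47.0%) of 233 against 19.2% (12.7 to 27.2%) of 125, and for those of 151 to 300 nt 11.2% (10.1 to 12.4%) against 10.7% (9.83 to 11.6%), intervals that overlap. Among microexons, 84.5% (72.6 to 92.7%) of the 58 that break the frame had a PSI under 10, against 57.8% (51.4 to 64.0%) of the 251 that keep it. Read from the other side, 46.8% (45.3 to 48.3%) of the 4210 intermediate cassette exons were multiples of 3, against 38.9% of those over 90 and 40.2% of those under 10.

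Alternative 3′ splice sites 3 nt apart stood out. Of 1513 Alt3 events with 2 sites at that distance, 557 (36.8%, 34.4 to 39.3%) were intermediate. At every other distance the share was between 2.91% and 7.003%, as for 1057 events 4 nt apart (5.96%, 4.61 to 7.56%). These events made up 47.2% of the 1181 intermediate Alt3 events with 2 sites. Sites this close are known as tandem acceptors, and the choice adds or removes 1 codon in coding sequence. At 5′ splice sites the same distance had no such share: 18 of 214 events (8.41%, 5.06 to 12.97%) were intermediate, beside 6.79 to 12.5% at the other distances. The site that lengthens the exon had a median PSI of 92.9 in Alt3 events 3 nt apart, and of 1.11 in those 13 to 24 nt apart.

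**Figure D4:**
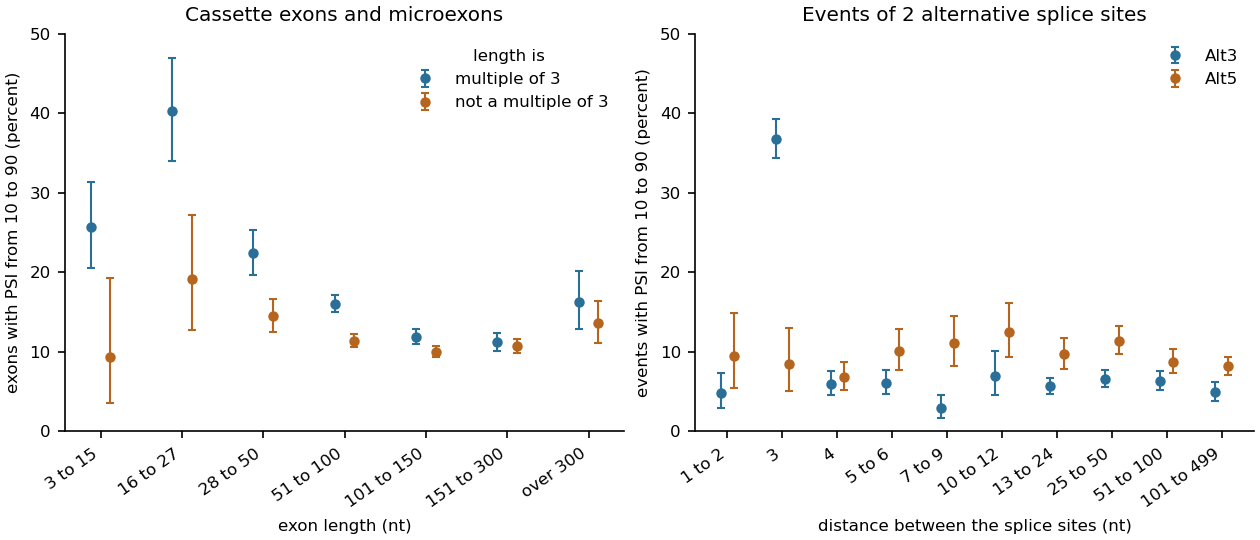
Percent of exons (left, by exon length and by whether it is a multiple of 3) and of events with 2 alternative sites (right, by the distance between the sites) with a PSI from 10 to 90 in siControl Veh. Points are shares and bars exact 95% binomial intervals, and the 3′ splice sites 3 nt apart lie at 36.8%, above every other distance.

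The intermediate share differed less between genes of different level. Intermediate cassette exons made up 14.7% (13.7 to 15.8%) of those in genes at a cRPKM from 1 to 5, 12.4% from 10 to 20, 10.4% (9.17 to 11.6%) from 50 to 100 and 12.2% (10.2 to 14.4%) over 100, while the share under 10 ran from 16.1% to 25.2% over the same classes.

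Microexons in genes with known neuronal exons were of special interest in a neuronal line. For 42 such microexons in 30 genes the score was OK or better. Of these 8 were over 90, 18 (42.9%) were intermediate and 16 (38.1%) were under 10, with a median PSI of 31.3. Of the 252 other microexons scored as well, 17.5% were intermediate and 66.7% under 10, with a median of 0.84. The list was drawn from genes whose exons are known to change in neurons, so this contrast describes the list and is no independent evidence about microexons.

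A few of these exons are shown as sequence because they carry the range of states and are short enough to be read whole. Capitals mark the microexon and lower case 7 nt of the exon on either side, on the transcript strand, 5′ to 3′, and the number in brackets is the PSI in siControl Veh. They were read from GENCODE M21 transcripts (GRCm38) with the same gene, exon length and flanking intron lengths as in the tables. All 17 matched microexons, of 29 looked up, lie in coding sequence of at least 1 transcript. Coordinates below are those of the tables, in mm9.
Ap1s2, 9 nt (97.9): gcaggagGATGCAAAAgaagctg
Dnm1, 12 nt (96.8): gaaccagGATGAGATTCTGgtcattc
Apbb1, 6 nt (94.3): gtggaagAGAGAGggacttt
Cacna1b, 6 nt (93.2): gatagcgGAAACGaacaact
Abi1, 15 nt (86.8): agttaagTGGCTAAAAGCCAAGcacggaa
Dnm2, 12 nt (86.6): caatcagGGGGAGATCTTGgtgatcc
L1cam, 15 nt (84.0): gacgaatATAAAGGACACCATGtgctaga
L1cam, 12 nt (51.6): agtacagGTCCCTGGAGAGtgacaat
Agrn, 12 nt (31.0): atctccgAAATCCCGCAAGgtcccgc
Mon2, 3 nt (26.1): acttgagAAGgtctgcc
Ncam1, 15 nt (2.46): ccagtccATAGCCCTCCTCCACtggctcc
Cacna1b, 12 nt (0): cgttctcGAGCTTCATGGGaggatcc

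At the top of the range, Macf1, a linker of the cytoskeleton (9 nt, chr4:123063792-123063800) had a PSI of 98.6, the clathrin adaptor subunit Ap1s2 (chrX:160369295-160369303) 97.9, the Arf regulator Asap1 (9 nt, chr15:63985406-63985414) 97.3, the neuronal dynamin Dnm1 (chr2:32178699-32178710) 96.8, the APP-binding adaptor Apbb1 (chr7:112714460-112714465) 94.3, the calcium channel Cacna1b (6 nt, chr2:24498373-24498378) 93.2 and Asap2 (4 nt, chr12:21220228-21220231) 92.6. Each of these lay above 90 in siControl Dex as well, from 90.5 to 97.8. The remaining microexon above 90, in the receptor phosphatase Ptprs (12 nt, chr17:56561256-56561267), lay outside the 30 named by rule and was at 99.1, the highest of the 42. Just below came Abi1, a regulator of actin (86.8), the ubiquitous dynamin Dnm2 (86.6), the adhesion molecule L1cam (15 nt, 84.0) and Fryl (83.8).

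The intermediate microexons covered the whole range. Ncam1, another adhesion molecule, included its 3 nt exon at chr9:49340079-49340081 at 72.3, while its 15 nt exon at chr9:49349993-49350007 was at 2.46. The exchange factor Vav2 had 2 microexons of 15 nt, at 71.6 (chr2:27140359-27140373) and 69.4 (chr2:27155950-27155964). Psap, whose transcript encodes the saposins (9 nt, chr10:59760285-59760293), was at 56.9, L1cam (12 nt, chrX:71100991-71101002) at 51.6, Ank2 at 31.6, Agrn (chr4:155543655-155543666), a synapse organiser, at 31.0, Mon2 (chr10:122460142-122460144) at 26.1 and Ank3 (12 nt) at 17.1. Ank3 scored only OK and was at 31.5 in siControl Dex.

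A final set was skipped. Bin1, Itsn1, Ptprf, Cask, Epb4.1l2 and the 12 nt exon of Cacna1b had a PSI of 0, Ank3 (3 nt) 0.84, Macf1 (12 nt, chr4:123046064-123046075) 1.68 and Madd (9 nt) 3.61. Microexons of 1 gene were thus set apart: in Macf1 a 9 nt exon was at 98.6 and a 12 nt exon at 1.68, and in Cacna1b a 6 nt exon was at 93.2 and a 12 nt exon at 0. Across all 4 libraries, 10 of the 30 named microexons stayed under 10 in each.

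**Figure D5:**
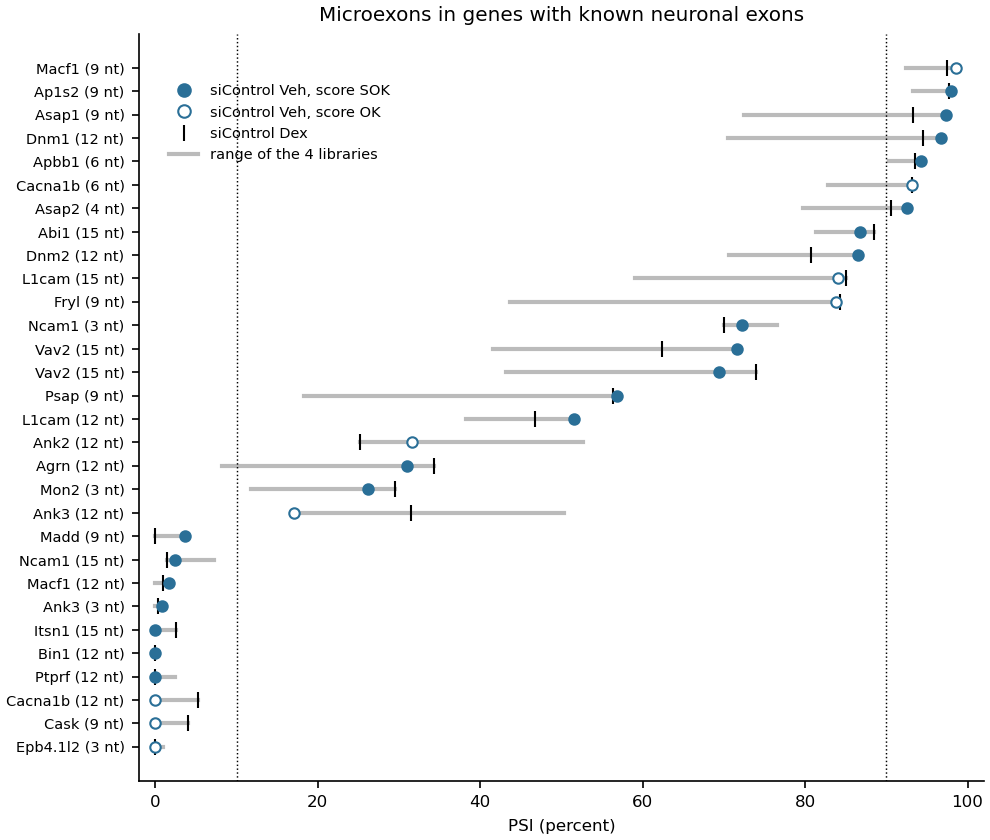
PSI of 30 microexons in genes with known neuronal exons, ordered by the siControl Veh value (circles, open where the coverage score was OK and not SOK), with siControl Dex as a bar and the range of the 4 libraries in grey. The baseline values run from 0 to 98.6, and the largest gap between the 2 siControl libraries is 14.3 points, for the 12 nt exon of Ank3.

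Longer cassette exons in the same genes, which need not be their neuronal exons, were in part intermediate. Examples chosen after their values were seen are Mef2a (24 nt, 41.2), Elmo2 (36 nt, 65.7), Daam1 (27 nt, 58.9), Numb (33 nt, 19.8), App (57 nt, 36.9) and the kinase gene Src (18 nt, 34.7). In siControl Dex they were at 38.6, 62.5, 43.5, 25.4, 38.8 and 30.3. Cassette exons of the genes with known neuronal exons were intermediate in 16.2% (13.4 to 19.3%) of 636, beside 12.4% of all cassette exons.

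Receptor genes held 14 cassette exons with an intermediate PSI and a score of SOK. The axon guidance receptors gave 6 of them: Unc5b had a 33 nt exon at 84.1 and a 165 nt exon at 88.4, Unc5c a 57 nt exon at 16.5, Neo1 a 33 nt exon at 22.9, Nrp2 a 51 nt exon at 55.0 and Plxnc1 an 85 nt exon at 13.3. In the kinases, Ddr1 had a 111 nt exon (chr17:35823426-35823536) at 73.7. Further ones were in Gabbr1 (151 nt, 65.96), P2rx4 (81 nt, 80.7, and 66 nt, 86.4), Sort1 (99 nt, 14.1), Cnr1 (108 nt, 12.1) and Fzd6 (149 nt, 84.2). Cnr1 was under 10 in siControl Dex, at 7.01, and Fzd6 lay above 90 there, at 90.3. A further 15 alternative splice sites of receptor genes met the same limits, the 18 nt site of Htr3a among them at 26.0 (19.99 to 32.9).

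Some events of Arglu1 and Nr3c1 themselves were settled, and an event of Arglu1 was intermediate. The 84 nt exon of Arglu1 (chr8:8681384-8681467) was included at 99.4 and the 58 nt exon (chr8:8681891-8681948) at 1.22, both scored SOK, and at 99.5 and 1.55 in siControl Dex. An event of alternative 5′ splice sites of Arglu1, scored LOW, lies at this same 58 nt exon. Its PSI thus divides only the few transcripts that carry the exon, not all Arglu1 transcripts. Within that event the site that adds 50 nt was intermediate. It was used at 63.6 (45.1 to 79.6) from 33 junction reads, and at 71.05 in siControl Dex. The Nr3c1 events listed are 5′ splice sites. The site that adds 52 nt was used at 100 (93.6 to 100) from 56 junction reads, and the site that adds 3 nt at 9.68 (2.04 to 25.8) from 31, a range that spans the limit of 10.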

How the data were processed

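N2a RNA was pooled over 3 cultures per condition and sequenced as unstranded polyA TruSeq V2 libraries. The study names vast-tools for splicing, and the submitters' notes name Bowtie and mm9. No version or annotation is given in the sources used here. The gene table holds deposited counts of reads per gene and the authors' cRPKM, an RPKM over uniquely mappable positions. Its 2 unnamed columns of the authors' own Dex over vehicle ratios were not used. The splicing tables hold the authors' PSI in percent, each with a coverage score. Mappable length was computed from reads, cRPKM and total reads.

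Values were computed in Python 3.11.15 with pandas 2.3.3 and scipy 1.17.1. A cRPKM of at least 1 counted as expressed, and a PSI needed a score of LOW or better. Exact Poisson and binomial 95% intervals were given. The PSI classing was run on simulated simple cassette exons with PSI values far from the limits. It thus does not test exons near a limit or events with several sites. With 1 library per group no test was run. Where a symbol had several rows, the row with most reads was used.

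Members and gene lists were chosen with earlier results of these data known. Named were the 25 highest genes, up to 8 highest of each list and members under 10 reads, Arglu1 and Nr3c1, and up to 30 microexons of the neuronal list, SOK before OK and then by name. Other named genes were chosen after their values were seen. Of 698 symbols in 25 lists, 694 had a value, and Hbb-b1, Sox1 and Slc18a3 were not analysed here. Rack1 is listed as Gnb2l1. Alternatives were other thresholds, coverage scores, PSI limits and the siControl Dex library. Results of some genes are not reported here.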

Additional observations from a re-analysis of the deposited data

How the results depend on the processing

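No paired analysis was possible because each condition has 1 library and no result comes from a test. Of 142 values under other settings, 99 stayed within 1.5 times of a count or of a share of summed cRPKM, or within the 95% interval of another share or median, and 43 moved. With expressed defined by a CPM of at least 1, the counts were 5 other transmitter genes, 8 progenitor genes, 6 glial genes, 4 endothelial, blood, epithelial and liver genes, 25 receptor tyrosine kinases and 5 monoamine receptors. With a cRPKM of at least 0.5 they were 6 glial, 4 endothelial, blood, epithelial and liver genes and 5 monoamine receptors, and with at least 2 they were 0 endothelial, blood, epithelial and liver genes and 2 glutamate receptors. The 25 genes with most reads took 11.2% of the reads. Among genes with at least 200 mappable nt, an alternative added after seeing the data, the 25 highest took 17.8% of the summed cRPKM of those genes, and 14.8% of that of all genes. The share of intermediate events under a score of OK or better was 9.77% (simple cassette), 17.5% (complex), 9.39% (Alt3) and 9.54% (Alt5), and under SOK alone 9.08%, 16.5%, 7.54% and 7.03%. With any score it was 10.7% (simple), 37.2% (marked ME), 13.6% (Alt3) and 15.5% (Alt5). With limits of 5 and 95 it was 18.9% (simple), 30.4% (complex), 56.0% (marked ME), 28.5% (microexons), 17.6% (Alt3) and 18.2% (Alt5), and with limits of 20 and 80 it was 4.76%, 10.2%, 28.7%, 13.3%, 6.18% and 6.55%. Complex cassette exons with balanced junction reads gave 23.4%. The median PSI was 92.0 (Alt3) and 2.82 (Alt5) with a score of OK or better, and 98.0 (simple), 86.4 (complex), 85.7 (Alt3) and 4.76 (Alt5) with any score. The causes of these shifts were not tested. Pooled RNA gives no replicate error, levels of genes under 200 mappable nt rest on few positions, and PSI of Alt3 and Alt5 events scored LOW rest on 20 to 39 junction reads.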

Other observations

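Hox genes mark position along the body axis. Of the 38 with a value 4 were expressed (10.5%, beside 50.1% of all genes). All 4 lay in the HoxC cluster: Hoxc10 at 13.2, Hoxc9 at 10.5, Hoxc6 at 8.07 and Hoxc4 at 1.43. Hoxc8 (0.78) and Hoxc5 (0.38) had 119 and 68 reads. Every HoxA and HoxD gene with a value had 0 reads, and the HoxB cluster gave at most 5, from Hoxb7. The pattern held in the other libraries for Hoxc10 (7.86 to 13.2), Hoxc9 (10.4 to 16.8) and Hoxc6 (6.97 to 8.07), while Hoxc4 was at 0.89, under the threshold, in both siArglu1 libraries. Hox genes as a list were chosen after the data were seen.

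Of 30 genes of neuropeptides and peptide hormones, a list also chosen after the data were seen, 5 were expressed (16.7%, beside 50.1% of all genes). They were Cartpt (11.4), Pomc (6.46), Npy (4.13), Adm (2.43) and Vip (1.60). Penk, Sst, Cck, Gal, Tac1 and Calca had 0 reads. The granins that fill the same granules were far higher, with Chga at 190.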
